A study of Mus musculus with 4 samples.

Results

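The genes of the AMP-activated protein kinase (AMPK) were followed at the 5′ ends of transcripts in skeletal muscle of mice that lack AMPKα2. The members were the 7 genes that encode the subunits of the enzyme, chosen by gene symbol. In the table of start sites, 6 of the 7 genes were listed, with 34 of the 42207 alternative start sites (ASSs) and as 6 of 9838 genes. The libraries came from gastrocnemius muscle of AMPKα2-/- C57BL/6 mice (KO, n = 2) and of their wild-type controls (WT, n = 2). The KO mice were about 8 weeks old, the labels call all animals adult, and they name no treatment. Per the study's methods, the KO and WT mice were male. Per the study, the KO removed a stretch of Prkaa2 that codes for a part of the catalytic domain rather than the whole gene. Each library was made by WTSS-seq (sequencing of transcription start sites over the whole transcriptome), in which template switching tags the 5′ end of a transcript, or of a fragment of one, and reads are counted per clustered site.

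AMPK is a heterotrimer of a catalytic α, a scaffolding β and a nucleotide-binding γ subunit. It is switched on when AMP and ADP rise against ATP, and phosphorylation of the activation loop of the α subunit by upstream kinases such as LKB1 is needed for full activity. In skeletal muscle the enzyme is known for its response to contraction and for its actions on glucose uptake, fatty acid oxidation and mitochondrial content. Prkaa1 and Prkaa2 encode α1 and α2, Prkab1 and Prkab2 encode β1 and β2, and Prkag1, Prkag2 and Prkag3 encode γ1, γ2 and γ3, of which γ3 is largely confined to fast-twitch muscle.

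The 3 genes with most sites were Prkaa2, Prkag3 and Prkab2, and the 250 bases before their annotated starts are shown because a capped 5′ end would be looked for at the end of these stretches, where no site was listed. The sequences are those of RefSeq on GRCm38.p6, written 5′ to 3′ in the direction of the gene. Capitals mark matches to the GC box, GGGCGG on either strand. Prkaa2 lies on the minus strand and the stretch is chr4:105109899-105110148. Prkab2 lies on the plus strand with chr3:97657962-97658211, and Prkag3 on the minus strand with chr1:74748956-74749205.
Prkaa2: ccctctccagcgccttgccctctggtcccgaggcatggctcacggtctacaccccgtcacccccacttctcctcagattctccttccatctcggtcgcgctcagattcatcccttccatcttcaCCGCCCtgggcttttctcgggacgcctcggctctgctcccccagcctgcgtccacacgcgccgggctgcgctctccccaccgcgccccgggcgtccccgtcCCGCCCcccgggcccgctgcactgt
Prkab2: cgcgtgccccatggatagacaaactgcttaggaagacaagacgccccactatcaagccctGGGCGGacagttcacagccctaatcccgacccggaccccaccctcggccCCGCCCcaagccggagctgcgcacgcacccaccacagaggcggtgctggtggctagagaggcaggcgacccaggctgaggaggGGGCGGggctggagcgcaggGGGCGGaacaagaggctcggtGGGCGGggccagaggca
Prkag3: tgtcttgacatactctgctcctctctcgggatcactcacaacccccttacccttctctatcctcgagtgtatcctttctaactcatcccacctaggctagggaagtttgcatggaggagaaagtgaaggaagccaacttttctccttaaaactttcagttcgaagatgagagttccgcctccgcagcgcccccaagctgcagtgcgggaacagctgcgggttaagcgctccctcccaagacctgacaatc

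The stretch before Prkaa2 held 2 GC boxes and 70.0% G or C. The stretch before Prkab2 held 5 GC boxes and 69.2% G or C, and that before Prkag3 held 0 GC boxes and 52.4% G or C, which was also the median of all such stretches (52.4%). RefSeq listed 9 promoter windows of 300 bases for the 7 genes (250 before to 50 after a start). Motifs were searched in the 250 bases before the start alone. A GC box was found there in 6 of the 9 windows, against 32.7% of 32851 windows of all genes. The CCAAT box (CCAAT, either strand) was found there in 3 of 9 windows, against 33.8% of all windows, and the TATA box (TATAAA, either strand) in 0 of 9, against 12.4%. No site of any gene fell in the 9 windows. Over all genes with a window, 758 of 29956 sites (2.53%) lay in a window of their gene, and 736 of 6824 genes (10.8%) had such a site.

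The 34 sites of the AMPK genes therefore began inside or past the genes rather than at their annotated starts. The nearest was an intronic Prkab2 site 3.855 kb downstream of the start. Within 1 kb of the nearest annotated start, on either side, lay 0 of 34 sites, against 6.29% of 28681 sites of all genes. The median position was 78.8% of the span of the gene for the AMPK genes and 60.2% for all genes. By class code, 18 sites were intronic (code i, 52.9%), 13 were contained in an annotated transcript (code c, 38.2%) and 3 lay past the gene end (code p, 8.82%). The shares of all sites with a gene were 52.0% for code i, 38.6% for code c and 1.53% for code p. The number of sites per gene ran from 19 in Prkaa2 through 6 in Prkag3, 4 in Prkab2, 2 in Prkag1 and 2 in Prkag2 to 1 in Prkaa1. Prkab1, which encodes β1, was not listed. The table lists only sites with 10 or more reads over the 4 libraries, so its absence is not a count of 0 and no value is given.

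**Figure D1:**
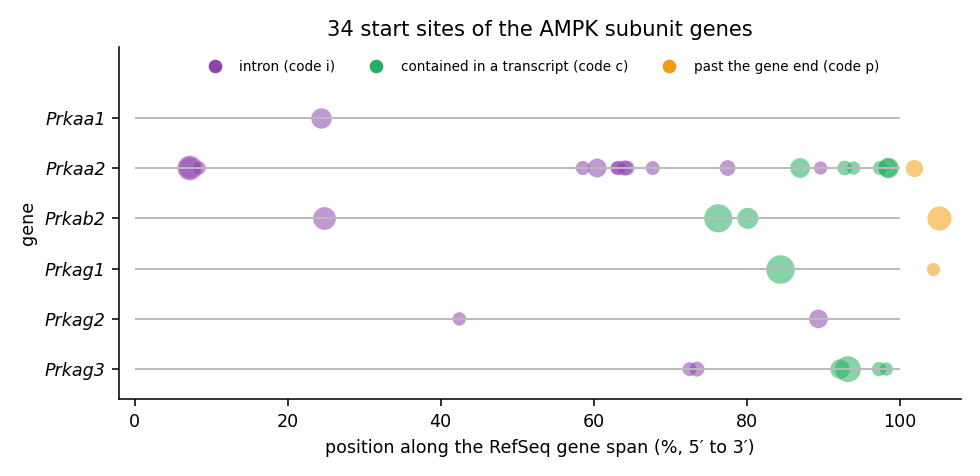
Each circle is 1 start site of an AMPK subunit gene, placed by its position along the RefSeq span of the gene (horizontal axis, percent, 5′ to 3′) with a row per gene. Area grows with the reads over the 4 libraries up to 300 reads, colour gives the class code, and the sites crowd toward the 3′ end, with a median position of 78.8%.

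Library totals ran from 1300069 reads (WT replicate 1) to 2900279 reads (KO replicate 1), so that each KO library was deeper than each WT library. Of these reads the AMPK genes took 1076 and 543 in KO, with 2142 and 398 in WT. A count of 3 reads, taken as the floor, was 1.03 to 2.31 ppm (reads in 1000000 of the library). The 34 sites had reads in 30 and 26 cases in KO, against 25 and 25 cases in WT. All 13 skeletal muscle markers were listed and summed to 41643 to 55066 ppm over the 4 libraries. Myl2 was not listed among 8 slow-fibre markers, which summed to 308 to 861 ppm. For marker lists, here and below, ppm means reads in 1000000 of the reads assigned to a gene. With 2 libraries a group, an exact permutation test of a value between groups cannot give a p below 0.333, so tests were made in fits across all sites or all genes. In bulk muscle, fewer cells of a type and less RNA per cell cannot be told apart.

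Prkaa2, the targeted gene, was counted at like levels in KO and WT when all its sites were summed. Its raw reads were 244 and 209 in KO replicates 1 and 2 and 109 and 149 in WT replicates 1 and 2. After normalization the counts were 149 and 183 in KO (166 ± 23.8, SD, n = 2) against 153 and 186 in WT (169 ± 23.1, SD, n = 2). The groups overlapped, each holding a lower and a higher library at nearly the same levels. The log2 fold change of KO against WT was -0.03 (SE 0.50), its 95% interval -1.01 to 0.95, and the DESeq2 adjusted p 0.994. The interval leaves room for a summed level in KO about 1 log2 unit lower or higher. The RNA of the targeted gene was thus still counted in the libraries labelled KO, and the total does not by itself tell KO from WT. Prkaa2 is encoded on the minus strand at chr4:105029649-105109898 (GRCm38, GeneID 108079), a span of 80.25 kb.

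Along Prkaa2, reads of KO and WT were listed at partly different places. The 19 sites fell into 4 groups along the gene, set after the values were seen and therefore described without a test. The first group held 3 intronic sites at 5.767 to 6.783 kb from the annotated start, the next 6 intronic sites at 47.01 to 51.678 kb, followed by a middle pair of intronic sites at 54.329 and 62.185 kb, and the last group held 8 sites from 69.788 kb to past the gene end at 81.678 kb. Reads of both groups of mice were present in the first and last group. Summed over the 6 intronic sites the normalized counts were higher in KO, though KO and WT overlapped at some of them. In the middle pair all listed reads were from WT.

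**Figure D2:**
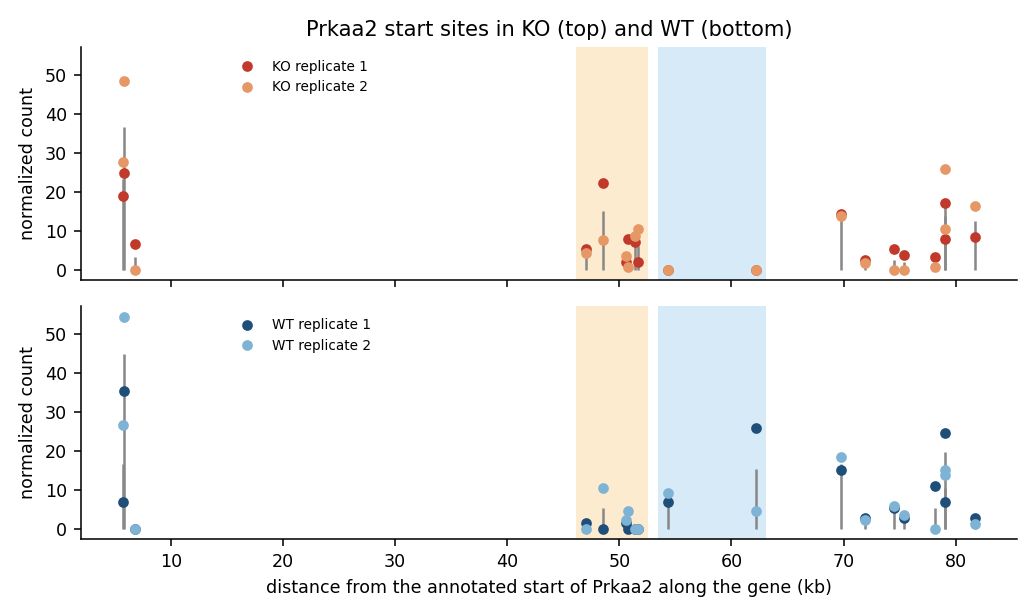
Normalized count of each of the 19 Prkaa2 sites (vertical axis) against the distance from the annotated start along the gene (kb), with KO in the upper and WT in the lower panel; dots are libraries and grey lines the mean of 2. In the orange band (6 intronic sites) the KO means stand higher, though the libraries overlap at some sites. In the blue band (the middle pair) both KO libraries are at 0 while WT reaches 25.8.

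The 3 sites near the start held 77 and 88 reads in KO against 31 and 70 reads in WT. The leading site of the gene in every library was among them, at position 105104091, with 38 and 56 reads in KO against 26 and 47 in WT. It took 15.6% to 31.5% of the Prkaa2 reads of a library. The neighbouring site at 105104131 had 29 and 32 reads in KO against 5 and 23 in WT, and its groups did not overlap in raw reads but did in normalized count, at 19.03 and 27.6 in KO against 6.78 and 26.6 in WT. The remaining site at 105103115 was counted in KO replicate 1 alone, with 10 reads. Summed over the 3 sites, the normalized counts were 63.2 ± 17.97 in KO and 61.5 ± 27.4 in WT (SD, n = 2), a difference smaller than the spread of either group.

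The 6 intronic sites at about 50 kb held 71 and 41 reads in KO against 2 and 15 reads in WT. This was 29.1% (95% Wilson interval 23.8 to 35.1) and 19.6% (14.8 to 25.5) of the Prkaa2 reads in KO. In WT it was 1.83% (0.505 to 6.44) and 10.1% (6.20 to 15.9). The normalized sums were 41.0 ± 7.93 in KO and 10.02 ± 10.3 in WT (SD, n = 2). The sums include sites with 0 WT reads, listed only through their KO reads. The gap between the sums of KO and WT is therefore no support for a difference. Of the 6 sites, 105061392 had most reads, with 34 and 9 in KO against 0 and 9 in WT, so that KO replicate 2 and WT replicate 2 overlapped there. KO and WT also overlapped in normalized count at others of the 6 sites. The sites 105058497, with 11 and 10 reads in KO, and 105058220, with 3 and 12 reads in KO, had 0 reads in both WT libraries. A site with 0 reads in WT is in the table only through its KO reads, so no fold is given for these sites.

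The middle pair showed the opposite. The site at 105055569 had 5 and 8 reads in WT, the site at 105047713 had 19 and 4 reads in WT, and both KO libraries had 0 reads at both. Together they made 24 and 12 reads, or 22.0% (95% Wilson interval 15.3 to 30.7) and 8.05% (4.67 to 13.5) of the Prkaa2 reads in WT. In KO the share was 0 of 244 and 0 of 209 reads. The intervals cover counting error only and do not allow for sites picked after the values were seen. Both sites reached the table's minimum of 10 reads through WT alone, and at 105047713 most reads came from WT replicate 1, so no fold is given. From 105040178 to 105058219, a stretch of 18042 bases, no listed site held a KO read and the listed sites held 36 WT reads. A longer stretch of 40224 bases toward the 5′ end held no listed site of the gene at all. Reads at sites under 10 in total are not in the table, so neither stretch is shown to be free of reads. The position of the deleted exons on this build was not given in the sources used here, so the stretch was not compared with the deletion.

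The 8 sites toward the 3′ end held 96 and 80 reads in KO against 52 and 52 in WT, with normalized sums of 66.0 ± 4.27 and 65.3 ± 7.42 (SD, n = 2). The groups overlapped and differed by less than the spread between libraries. The contained site at 105040110 had 22 and 16 reads in KO against 11 and 16 in WT. The contained sites at 105030876 and 105030834 had 26 and 12 against 5 and 12 reads, and 12 and 30 against 18 and 13 reads. In normalized count KO lay just below WT at 105040110, and the groups overlapped at the other two. At the last site, 105028220, past the annotated gene end, KO was higher, with 13 and 19 reads against 2 and 1, or 12.5 ± 5.56 against 1.93 ± 1.10 in normalized count (SD, n = 2). The WT reads alone were under the table's minimum of 10, so this site is listed only through its KO reads. Its mean count was below the DESeq2 minimum, and its higher KO count is no support for a difference. The 7 Prkaa2 sites not named had totals of 10 to 17 reads over the 4 libraries.

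**Figure D3:**
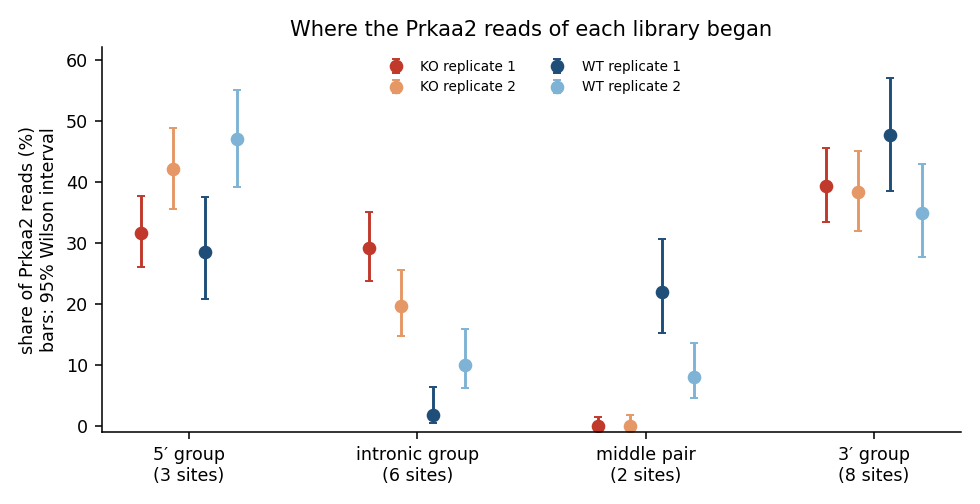
Share of the Prkaa2 reads of each library (vertical axis, percent, with 95% Wilson intervals, counting error only) that began in each of the 4 groups of sites, 5′ to 3′ from left to right. The 6-site intronic group takes 19.6% to 29.1% in KO and 1.83% to 10.1% in WT, whereas the middle pair takes 0% of the listed reads in KO and 8.05% to 22.0% in WT. The groups of sites were set after the values were seen, which the intervals do not allow for.

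No single Prkaa2 site passed the test between groups. DESeq2 gave an adjusted p of 1.00 to each of the Prkaa2 sites with a mean count of at least 8.76, and the pair without KO reads was below that minimum. With no minimum, the DESeq2 adjusted p was 0.415 for 105047713 and 1.00 for 105055569. The test of site usage within a gene (diffSpliceDGE of edgeR, Simes) used 6 Prkaa2 sites and gave an adjusted p of 1.00, with the same value for Prkab2 on 3 sites and Prkag3 on 2 sites. The middle pair and 5 of the 6 intronic sites at about 50 kb had too few reads to enter that test, so it did not cover most of the pattern described. It called 0 of these 3 genes, none of them at an unadjusted p under 0.05, against 1.79% of 2184 genes. Other genes also held sites of both kinds. Among 903 genes with 10 or more sites, 23.3% had at least 1 site with 0 reads in both KO libraries and 10 or more in WT together with at least 1 of the reverse kind, as Prkaa2 had, so such a pattern was not rare.

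Prkaa1, the gene of the α1 catalytic subunit, had higher counts in both KO libraries than in both WT libraries. Its 1 site, intronic at chr15:5153153 and 9.292 kb from the annotated start on the plus strand, had 48 and 17 reads in KO against 5 and 2 in WT. The WT reads alone were under the table's minimum of 10, so the site, and with it the gene, is listed only through its KO reads. The higher KO level is therefore no support for a difference. The normalized gene counts were 29.3 and 14.9 in KO (22.1 ± 10.2, SD, n = 2) against 7.01 and 2.49 in WT (4.75 ± 3.20, SD, n = 2). The log2 fold change was 2.23 (SE 1.29, 95% interval -0.30 to 4.77). The mean count of the gene was below the DESeq2 minimum for genes of 16.5, and the edgeR adjusted p was 0.431. As a site it was tested, with a DESeq2 adjusted p of 0.697. Because both KO libraries lay above both WT libraries, leaving out 1 library is no check of the direction. In fits without each library in turn the log2 fold change was 1.63 to 3.15. In these fits the gene was again below the count minimum and had no adjusted p. All listed Prkaa1 reads came from the 1 intronic position.

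The scaffolding subunit β2, from Prkab2 at chr3:97658211-97673812, showed nearly level sums. The normalized counts were 146 and 138 in KO (142 ± 5.60, SD, n = 2) against 143 and 162 in WT (152 ± 13.3, SD, n = 2). The log2 fold change was -0.10 (SE 0.51, 95% interval -1.10 to 0.89) and the DESeq2 adjusted p was 0.992. The groups overlapped, and the intervals of Prkab2 and Prkaa2 were the narrowest of the 6 genes. Within the gene, the contained site at 97670110 had 64 and 88 reads in KO against 50 and 80 in WT and was the leading site in all libraries except KO replicate 1. There the site at 97670712 led, with 71 reads, against 8 in KO replicate 2 and 2 and 2 in WT. Its log2 fold change was 3.42 (SE 1.53, DESeq2 adjusted p 0.358), and the higher KO level rested mainly on the 1 library. The WT reads of this site alone were under the table's minimum of 10, so it is listed only through its KO reads. The intronic site at 97662067 had 45 and 41 reads in KO against 20 and 10 in WT, and the site past the gene end at 97674613 had 59 and 21 against 30 and 38. In normalized count the intronic site was higher in both KO libraries (32.5 ± 4.14 against 19.3 ± 11.02, SD, n = 2) and the site past the end lower in both (28.4 ± 14.6 against 42.3 ± 2.25), with a DESeq2 adjusted p of 1.00 for each.

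Among the γ subunits, Prkag1 had the widest spread of the 6 genes, and its values turned on 1 library. The contained site at 98815723, 15.785 kb from the annotated start on the minus strand of chromosome 15, had 388 and 81 reads in KO against 1867 and 28 in WT. WT replicate 1 stood 78.3-fold above WT replicate 2 in normalized count at this site, and KO replicate 1 stood 3.64-fold above KO replicate 2. The other site, 98811979 past the gene end, had 10 reads in KO replicate 1 and 0 in the other libraries. Summed, Prkag1 had normalized counts of 243 and 70.8 in KO (157 ± 122, SD, n = 2) against 2618 and 34.9 in WT (1326 ± 1827, SD, n = 2). WT replicate 1 was the highest library, WT replicate 2 the lowest, and the KO libraries lay between them. The log2 fold change was -3.08 (SE 2.10), its 95% interval -7.20 to 1.04, and the DESeq2 adjusted p 0.760.

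Without WT replicate 1 the log2 fold change of Prkag1 was 2.18 (DESeq2 adjusted p 0.300), and without WT replicate 2 it was -4.08 (DESeq2 adjusted p 3.41e-06). In each of these fits WT was 1 library, assumed to vary like the KO libraries, and in the latter it was the outlying WT replicate 1. No direction of Prkag1 between KO and WT can be read from these libraries. A library that stands 5-fold or more over the next was seen at 27 of 419 sites (6.44%) with 500 or more reads in a library, 10 of them with KO replicate 1 on top, 12 with KO replicate 2, 5 with WT replicate 1 and 0 with WT replicate 2. Within each group, the library with more Prkag1 was also the one with more adipocyte marker reads. The adipocyte list (5 of 7 genes listed, Cidec and Retn not) summed to 3470 and 1531 ppm in KO and to 3364 and 1749 ppm in WT. The fibroblast list (7 of 7 listed) ordered the libraries within each group in the same way, at 1683 and 1312 ppm in KO against 2175 and 1959 ppm in WT, as did the endothelium list (5 of 5 listed), at 167 and 129 against 134 and 125 ppm. The blood list (3 of 6 genes listed, Hba-a2, Hbb-bs and Hbb-bt not) summed to 34.6 and 35.9 ppm in KO and to 97.1 and 34.7 ppm in WT. The part of these lists in the Prkag1 counts was not tested.

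Prkag2, for γ2, on the minus strand of chromosome 5, was counted in introns alone. The site at 24888651 had 5 and 14 reads in KO against 19 and 12 in WT, and the site at 25002928 had 0 and 7 against 2 and 2. The summed normalized counts were 3.05 and 18.4 in KO (10.7 ± 10.8, SD, n = 2) against 29.4 and 17.4 in WT (23.4 ± 8.49, SD, n = 2). KO replicate 2 and WT replicate 2 were at nearly the same level, so the groups overlapped. The log2 fold change was -1.15 (SE 1.18), its 95% interval -3.46 to 1.17, and the DESeq2 adjusted p 0.916.

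Prkag3, for the γ3 subunit of fast-twitch muscle, on the minus strand of chromosome 1, had normalized sums of 86.7 and 49.8 in KO (68.3 ± 26.1, SD, n = 2) against 53.3 and 93.4 in WT (73.3 ± 28.4, SD, n = 2). Each group held 1 higher and 1 lower library, and the log2 fold change was -0.10 (SE 0.66), its 95% interval -1.40 to 1.20, and the DESeq2 adjusted p 0.992. The leading site in every library was contained in the transcript at 74739638, with 76 and 36 reads in KO against 31 and 55 in WT, or 53.5% to 81.6% of the Prkag3 reads. The next, 74739747, had 27 and 16 against 3 and 12. Sites with reads in KO and 0 in both WT libraries were 74741719 in an intron, with 14 and 4 reads, and 74739208 and 74739108 near the 3′ end, with 15 and 10 reads in KO replicate 1 and 0 in KO replicate 2. In the same intronic stretch, the site at 74741821 had 0 and 1 read in KO against 4 and 8 in WT. Each of these sites reached the table's minimum of 10 reads through the reads of a single group. All were below the DESeq2 minimum count, so no direction is read from them.

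**Figure D4:**
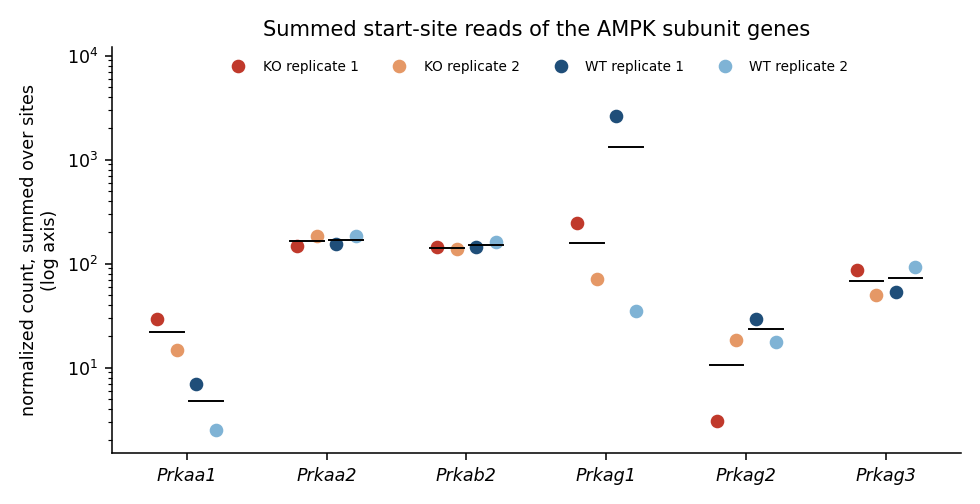
Normalized counts summed over the sites of each gene (vertical log axis) in the 4 libraries, with a horizontal line at the mean of each group of 2. Prkaa2 and Prkab2 are level across the libraries, and WT replicate 1 stands apart for Prkag1 at 2618. Prkaa1 is higher in both KO libraries but is listed only through its KO reads.

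As a family, none of the AMPK genes passed the test between KO and WT. DESeq2 tested 15 of the 34 sites and called 0 of them, against 3.21% of 11112 sites over the whole table, and the lowest adjusted p of a member site was 0.155, for the main Prkag1 site. At the level of genes it tested 5 of 6 and called 0, against 2.67% of 4688 genes. At an unadjusted p under 0.05, 2 of the 15 sites passed, the main Prkag1 site and the Prkab2 site at 97670712, against 9.63% of all sites tested, as did 0 of the 5 genes, against 9.77% of all genes tested. The edgeR test called 0 of 14 member sites and 0 of 6 member genes. Normalized counts of both KO libraries lay above both WT libraries at 8 of 34 sites, against 22.2% of all sites, and below them at 7 of 34 sites, against 13.9% of all sites. These were 23.5% and 20.6% of the 34 sites, the former near the share in all sites. Reads were absent from both WT libraries at 7 sites (20.6%, against 11.8% of all sites) and from both KO libraries at 2 sites (5.88%, against 2.29%), and the KO libraries were the deeper ones.

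**Figure D5:**
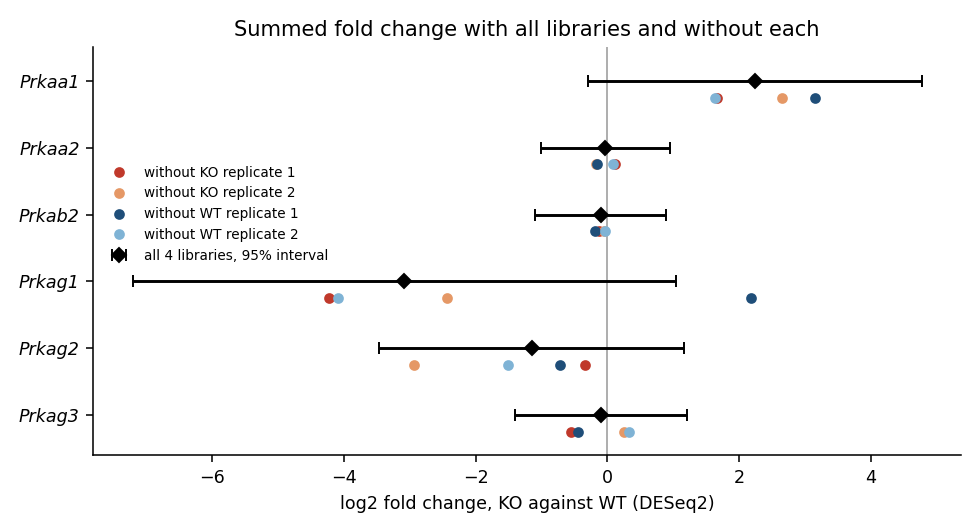
Log2 fold change of KO against WT (horizontal axis, DESeq2) for the summed reads of each gene, with all 4 libraries (black diamond, 95% interval) and without each library in turn (dots). All 6 intervals span 0, and Prkag1 runs from -4.22 to 2.18 depending on the library left out.

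Levels between the genes were set side by side as normalized counts per kb of gene span, since transcript lengths were not used here. Prkag1 ran from 1.86 to 140 over the 4 libraries and cannot be placed. Prkab2 had 8.85 to 10.4 and Prkag3 4.72 to 8.85, which touched at the edge of their ranges. Prkaa2 followed with 1.86 to 2.31, below all libraries of Prkag3 and Prkab2, and above Prkaa1, which had 0.0655 to 0.771. Prkag2 had 0.0125 to 0.121 and overlapped Prkaa1. The order depends on the division by span. In normalized counts not divided by length, Prkaa2 (149 to 186) was above every library of Prkag3 (49.8 to 93.4) and overlapped Prkab2 (138 to 162). The share of reads from introns was 54.1% to 66.4% in Prkaa2, 7.69% to 25.9% in Prkab2 and 8.77% to 10.7% in Prkag3, and KO and WT overlapped in Prkaa2 and Prkab2. In Prkag3 the KO shares (9.86% and 8.77%) were below the WT shares (10.5% and 10.7%) by less than their counting intervals.

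The pattern of summed Prkaa2 over the 4 libraries was nearly flat, with replicates numbered 2 slightly higher. The nearest genes by Euclidean distance of centred log2(normalized count + 1), among 2398 genes with a mean of at least 50, were Dnmbp (0.0640), Rgmb (0.0716) and the mitochondrial TrnV (0.0800). Within a distance of 0.5 lay 372 genes, so a flat pattern of this kind was common.

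The pathway around AMPK was read from 3 lists, and no gene on them was called by DESeq2 or by edgeR. At an unadjusted p under 0.05 there was 1 regulator (Ppp2r3a, a regulatory subunit of protein phosphatase 2A), 1 target (Clip1) and 0 related kinases, or 1 of 9, 1 of 14 and 0 of 4 tested, against 9.77% of all genes tested. The share called over all genes was 2.67%. Of 19 upstream kinases and regulators, 15 were listed and 9 tested, with 0 called, 5 of 9 above 0 and a median log2 fold change of 0.03. Of all 4688 genes tested, 2368 were above 0, and their median was 0.01. Fnip1, a folliculin-interacting protein that binds AMPK, had normalized counts of 195 and 211 in KO against 191 and 208 in WT. Sesn1, a stress-induced sestrin, had 109 and 114 in KO against 125 and 113 in WT. The groups overlapped for both genes. Ppp2r3a had 144 and 140 in KO against 28.05 and 72.2 in WT, a log2 fold change of 1.497 (SE 0.64) at a DESeq2 adjusted p of 0.311.

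Of 27 substrates and targets, 21 were listed and 14 tested, with 0 called, 9 of 14 above 0 and a median of 0.38. Over all genes tested, 2368 of 4688 were above 0. The lists were chosen with earlier results of these data known. The gene with most reads was Clip1, which encodes a microtubule plus-end protein phosphorylated by AMPK, at normalized counts of 949 and 1687 in KO against 436 and 615 in WT. Its groups did not overlap, and the log2 fold change was 1.32 ± 0.46 (SE), DESeq2 adjusted p 0.126. Tbc1d1, a Rab GTPase-activating protein in the control of glucose uptake, had 465 and 552 in KO against 393 and 494 in WT, and its groups overlapped. Of 14 AMPK-related kinases, 12 were listed and 4 tested, with 0 called, 3 of 4 above 0 and a median of 0.29. The 2 with most reads were Snrk, with 60.5 and 90.9 in KO against 44.9 and 67.3 in WT, and Sik2, a salt-inducible kinase, with 21.4 and 32.3 in KO against 82.7 and 37.4 in WT. Sik2 was lower in both KO libraries, at a log2 fold change of -1.16 (SE 0.78) and a DESeq2 adjusted p of 0.744.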

How the data were processed

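Start sites were measured by WTSS-seq in 2 AMPKα2 KO and 2 WT libraries, grouped by their titles. Ribosomal RNA was depleted before template switching and PCR. No molecular identifiers were described, so PCR copies count as reads and intervals cover counting error only. The authors deposited raw read counts per clustered site, with a gene and a Cuffcompare class code. Mapping and clustering settings were stated for the sister 3′-end libraries alone. Coordinates are in GRCm38, patch 5 per the labels, counted from 1. RefSeq gene spans and promoter windows were matched by symbol. Sites of the 7 genes and the lists were chosen with earlier results of these data known.

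Sites, and sums over the sites of a gene, were compared in fits of the whole table in DESeq2 (1.42.0, under R 4.3.3) by its Wald test, as in the study's methods, with median-of-ratios size factors, independent filtering, and calls at an adjusted p (Benjamini-Hochberg) under 0.1. The filter's minimum was a mean count of 8.76 for sites and 16.5 for genes. edgeR (version 4.0.16) gave the quasi-likelihood test with TMM and filterByExpr, and the usage test. Member sites were described alone when they had 30 reads or more over the libraries, or 10 reads or more in one group and 0 in the other. From each list the called genes and the 2 with most reads were named by rule, and Ppp2r3a after its value was seen. The 4 groups of Prkaa2 sites and other sites with fewer reads were picked after the values were seen. Normalized values are counts divided by size factors, and errors are the SD of 2 libraries. Site values use size factors over sites and gene values those over genes. The libraries are from separate animals.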

Additional observations from a re-analysis of the deposited data

How the results depend on the processing

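Each count of calls and each fold change was recomputed with other tests, filters, scalings, thresholds, sites and without each library, 173 values in all. Of these, 161 were labelled the same and 9 fold changes turned direction. For a count, the same means an unchanged number, and most counts were 0 under every setting. For a fold change, it means the same direction and, where an adjusted p could be given, the same side of the threshold. The other 3 all stem from Prkag1 without WT replicate 2, taken as a site count, a gene count and a fold change. The number of member genes called lower in KO was 0 to 1 without each library, and likewise 0 to 1 for member sites, and the 1 was Prkag1 without WT replicate 2, where WT was 1 library assumed to vary like KO. Without each library the log2 fold change ran from -0.17 to 0.12 for Prkaa2, from -4.22 to 2.18 for Prkag1 and from -0.55 to 0.33 for Prkag3. Prkaa2 was 0.12 without KO replicate 1 and 0.09 without WT replicate 2, Prkag1 was 2.18 without WT replicate 1, and Prkag3 was 0.25 without KO replicate 2 and 0.33 without WT replicate 2. Fits of part of the sites took their size factors from those sites, so their values are not on the scale of the main fit. In them Prkaa2 was 0.11 and Prkag3 0.20 outside introns, and Prkab2 was 0.47 with intronic sites alone. Prkaa2 was 0.0925 without sites at 0 in 2 or more libraries. The cause was not tested. With the replicate block, the replicate number as a term, 0 member sites and 0 member genes were called, the log2 fold change of Prkag1 was -1.22, and 195 sites and 95 genes of the whole table were called, against 357 and 125 without it. Replicates with the same number share that number alone, with a correlation of their deviations of 0.0910 over 5703 sites. Over the whole table edgeR called 80 sites and 54 genes, DESeq2 without its count minimum 175 sites, and fits without 1 library 44 to 250 sites and 56 to 77 genes. Adjusted p under 0.05 left 222 sites. Usage called 39 genes, and 74 by the F test, 18 with a total of 20 reads, 16 under 0.05, 12 with the block and 5 to 26 without 1 library. None of these usage calls was an AMPK gene. With 2 libraries a group, the intervals given for each gene were wide, and no smallest detectable difference was computed.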
